A study of Mus musculus with 16 samples.

Results

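The miR-322, miR-503 and miR-450a cluster is a group of mouse microRNA (miRNA) genes that lie next to each other on the X chromosome. Its 5 members here, mmu-miR-322, mmu-miR-503, mmu-miR-351, mmu-miR-542-3p and mmu-miR-450a-5p (the prefix for mouse is left out from here on), were chosen by name for their place in that cluster, out of 604 miRNAs carried by both array designs of the study. All 5 were on every array. miR-322 was detected on all 16 arrays, miR-503 on 3, miR-450a-5p on 2, and miR-351 and miR-542-3p on 0.

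The study measured mature miRNAs by hybridisation of total RNA to Agilent arrays, in 8 sorted populations of the dendritic cell and monocyte lineages with 2 biological replicates each. All cells came straight from female C57Bl/6 mice aged 6 weeks, with no culture, and each sample was a pool of animals. The differentiated populations were 3 splenic dendritic cell (DC) subsets, CD8+ DC (also CD86+), CD4+ DC and CD4-CD8- DC, from pools of 8 mice, and 2 bone marrow populations from pools of 5 mice, plasmacytoid DC (PDC; B220+, CD11c intermediate, SiglecH+, CD317+) and Gr1+ monocytes (CD11b+ CD115+ Gr1+). The progenitors were lineage-negative CD135+ bone marrow cells from pools of 15 mice, sorted as CDP (CD117 low, CD115+), MDP (CD117+ CD115+) and MP (CD117+ CD115-), the last of which the labels do not spell out. CDP are the common DC progenitors and MDP the macrophage and DC progenitors. The groups share strain and sex, and the splenic subsets differ from all the others in tissue as well as in cell type, so that those effects cannot be told apart.

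The hairpins of this cluster are made from the same stretch of the X chromosome and are transcribed together in the tissues where they have been studied, mainly muscle, endothelium and tumours. A miRNA recognises its targets mostly through its seed, bases 2 to 8 of the mature strand. miR-322 is the mouse counterpart of human miR-424 and belongs by its seed to the miR-15 and miR-16 family, which represses cell cycle genes such as cyclins and Cdc25a. In human cells miR-424 has been linked to the differentiation of monocytes. The sequences below show how the members divide by seed, with bases 2 to 8 in capitals, 5′ to 3′, from RefSeq (GRCm38.p6). The first 5 are the members and the others are the blood miRNAs that share a seed with one of them.
miR-322: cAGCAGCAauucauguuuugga
miR-503: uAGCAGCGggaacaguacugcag
miR-351: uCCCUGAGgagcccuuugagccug
miR-542-3p: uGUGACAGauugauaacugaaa
miR-450a-5p: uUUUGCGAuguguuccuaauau
miR-15a: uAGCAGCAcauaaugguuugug
miR-15b: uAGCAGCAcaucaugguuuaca
miR-16: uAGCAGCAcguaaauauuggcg
miR-195: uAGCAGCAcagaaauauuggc
miR-125b-5p: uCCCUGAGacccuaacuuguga
miR-322 carries the same seed, AGCAGCA, as miR-15a, miR-15b, miR-16, miR-195 and miR-497. After base 8 it matched miR-15b at 9 of 14 positions and miR-16 at 5 of 14, without gaps. The seed of miR-503 differs from that of miR-322 by A8G, counted from 1 at the 5′ end with the base of miR-322 first. miR-351 shares its seed, CCCUGAG, with miR-125a-5p and miR-125b-5p. The seeds of miR-542-3p and miR-450a-5p belong to no other mature miRNA in the RefSeq table.

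In GRCm38.p6 the cluster's mature strands span chrX:53048008-53054327 on the minus strand, 6320 bases from 7 hairpin genes. miR-322 (chrX:53054306-53054327, gene Mir322) comes first in the direction of transcription. miR-503 (chrX:53054027-53054049) starts 278 bases further on, and miR-351 (chrX:53053315-53053338) 989 bases on. miR-542-3p (chrX:53049415-53049436) lies 4891 bases downstream of miR-322. The mature miR-450a-5p is made from 2 hairpins, at chrX:53048339-53048360 (Mir450-2) and chrX:53048206-53048227 (Mir450-1), with identical mature sequence, so the arrays cannot tell them apart. The remaining hairpin, Mir450b, closes the cluster.

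Signal along this stretch was uneven. Each miRNA had up to 20 spots on an array, from 2 to 4 probes. It was counted as detected there when at least 1 of its probes had 0.5 or more of its spots well above background by the scanner software's own call. Of the spots of miR-322, 275 of 296 met that call over all arrays. For miR-450a-5p the number was 27 of 297, of which 24 were on the MP arrays and 3 on the MDP arrays. For miR-503 it was 28 of 312, of which 16 were on the Gr1+ monocyte arrays and 12 on the MP arrays. Only 1 of 313 spots of miR-351 was well above background, in MP, and 0 of 310 spots of miR-542-3p.

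The cluster's other mature strands were similarly dim. miR-542-5p, the opposite strand of the miR-542 hairpin, was detected on 1 array, the second MP replicate, with 12 of 314 spots well above background. miR-450b-3p was also detected only on the second MP replicate, with 8 of 318 spots. miR-450a-3p had 7 of 313 such spots, scattered over Gr1+ monocytes, PDC, CD4+ DC and CD8+ DC, and was detected on 0 arrays. miR-322*, miR-503* and miR-450b-5p had 0 spots well above background. Of the 16 arrays, the second MP replicate was the one with the most cluster strands detected: miR-322, miR-503, miR-450a-5p, miR-542-5p and miR-450b-3p. No level of one miRNA is set against that of another here, because probes differ in brightness.

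**Figure D1:**
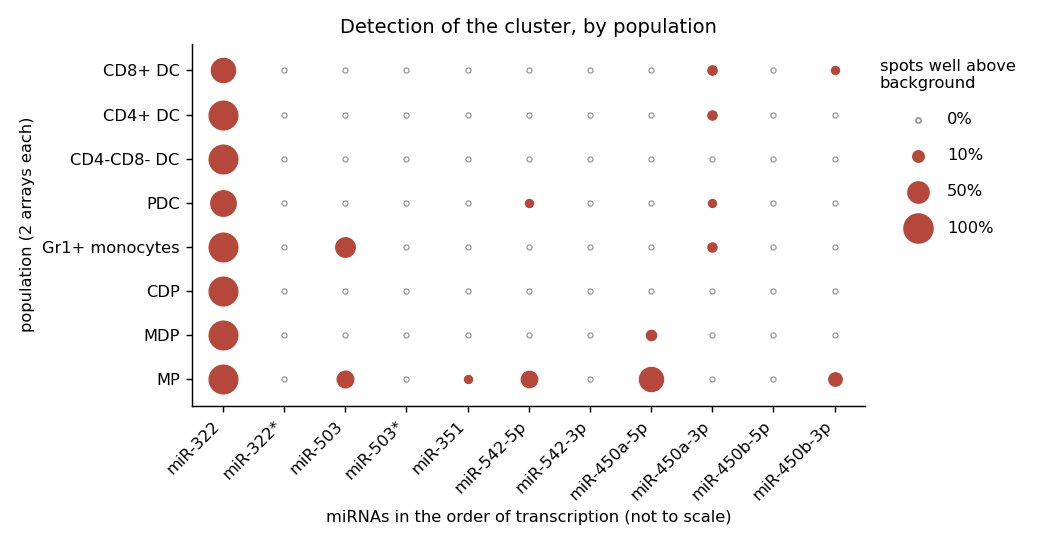
Percent of spots well above background (area of the dot; open dots, 0%) for the mature strands of the cluster, in the order of transcription from left to right (not to scale), in the 8 populations with 2 arrays each. miR-322 fills the first column, while miR-450a-5p and miR-542-5p have their largest dots in MP and miR-503 has dots in Gr1+ monocytes and MP.

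With the scaling used here, miR-322 was highest in MP and lowest in CD8+ DC and PDC. Levels are log2 of the processed signal after each array was divided by its 75th percentile over the 88 miRNAs detected on all arrays, so 0 stands for that percentile and 1 unit for a doubling. Replicates are given in the order 1 and 2, which are also the 2 array designs. In the splenic subsets miR-322 was at -4.44 and -4.32 in CD8+ DC, at -3.59 and -3.70 in CD4+ DC, and at -3.55 and -3.30 in CD4-CD8- DC. It was at -4.38 and -4.27 in PDC and at -2.48 and -2.66 in Gr1+ monocytes. Among the progenitors it was at -3.01 and -3.31 in CDP, at -2.72 and -2.80 in MDP, and at -1.90 and -1.70 in MP. Replicates lay 0.08 to 0.30 apart, against 2.58 between the means of MP and CD8+ DC.

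**Figure D2:**
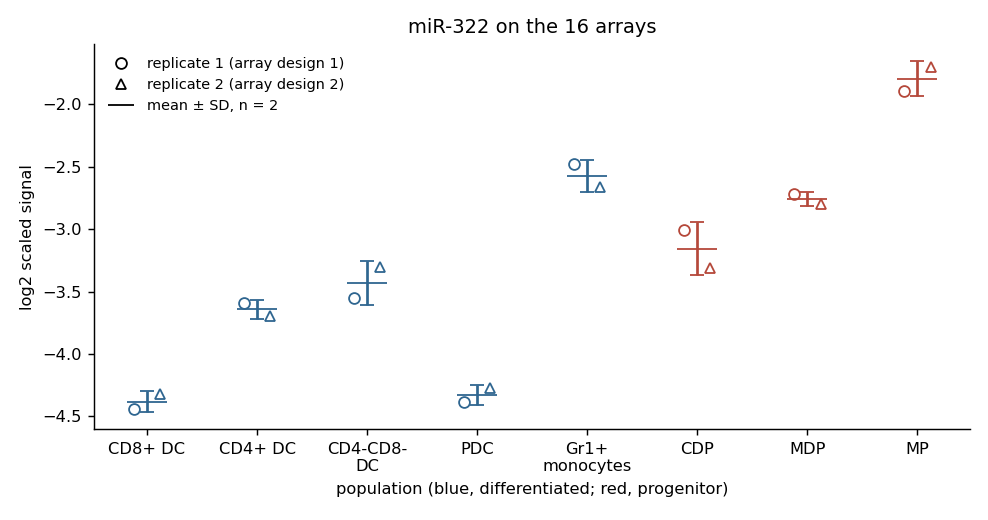
Log2 scaled signal of miR-322 (y axis) on each of the 16 arrays, by population (x axis). Open circles are replicate 1 and triangles replicate 2, and bars give the mean ± SD (n = 2). MP stands above all other populations, and CD8+ DC and PDC lie below the other 6.

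In order of mean level, the populations ran MP (-1.80 ± 0.14), Gr1+ monocytes (-2.57 ± 0.13), MDP (-2.76 ± 0.06), CDP (-3.16 ± 0.21), CD4-CD8- DC (-3.43 ± 0.18), CD4+ DC (-3.64 ± 0.08), PDC (-4.33 ± 0.08) and CD8+ DC (-4.38 ± 0.08; SD, n = 2 each). Of the 28 pairs of populations, 23 differed for miR-322 at an adjusted p under 0.05 (limma, Benjamini-Hochberg over 4900 tests, all pairs and all 175 tested miRNAs together), where 39.3% of all these tests were called. Between neighbours in the order, MP exceeded Gr1+ monocytes by 0.78 (limma, adjusted p = 0.00201) and CD4+ DC exceeded PDC by 0.69 (limma, adjusted p = 0.00386). The other neighbours did not differ beyond the threshold, the closest to it being MDP over CDP, by 0.40 (limma, adjusted p = 0.0508). The order changed with normexp background correction, where the mean of Gr1+ monocytes (-1.35) lay above that of MP (-1.41).

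The splenic subsets did not share one level. CD4+ DC exceeded CD8+ DC by 0.74 on the log2 scale (limma, adjusted p = 0.00261), and CD4-CD8- DC exceeded CD8+ DC by 0.95 (limma, adjusted p = 0.000604). CD4+ DC lay 0.21 below CD4-CD8- DC, which was not called (limma, adjusted p = 0.285). With normexp background correction CD8+ DC (-2.53) lay above CD4+ DC (-2.63) and below CD4-CD8- DC (-2.41). PDC, from the marrow, lay beside CD8+ DC by the scaling used here, with a gap of 0.05 that was not called (limma, adjusted p = 0.877). With arrays scaled over all miRNAs PDC (1.61) lay further above CD8+ DC (0.91), and with quantile normalisation the means were -4.40 and -4.84. With normexp background correction PDC (-2.80) lay below CD8+ DC (-2.53).

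Across all 8 populations, 2 of the 3 members tested changed, miR-322 (F test in limma, adjusted p = 3.32e-06) and miR-450a-5p (adjusted p = 0.0144), where 73.1% of the 175 tested miRNAs did. miR-503 did not (limma, adjusted p = 0.453). To be tested, a miRNA needed at least 1 population with both of its arrays detected. miR-351 and miR-542-3p did not meet that filter and have no test. The members that passed it did so through populations where they were brighter, so these counts describe them and are not a measure of how often the cluster's miRNAs change.

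The first comparison within the progenitors set MDP, which carry CD115, against MP, which do not. miR-322 was at -2.72 and -2.80 in MDP, against -1.90 and -1.70 in MP, with no overlap. It was lower in MDP by 0.96 ± 0.14 on the log2 scale (SE; limma, adjusted p = 0.0078), a level 51.3% of that in MP. Within array design 1 the difference was -0.83 and within design 2 it was -1.10. Among all tested miRNAs 10.3% were called and 9.71% were lower. miR-450a-5p was also lower in MDP, but it had passed the filter through its MP arrays alone, so its direction against MP follows from that filter and its call adds no support. The median log2 difference over all tested miRNAs was -0.08.

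Of the calls for miR-322, this one was lost under the most alternatives. With arrays scaled over all miRNAs the difference was -0.69 (limma, adjusted p = 0.153), with quantile normalisation -0.67 (adjusted p = 0.0905), and with normexp background correction -0.49 (adjusted p = 0.959). It also missed the threshold without MDP replicate 1 (-1.01, limma adjusted p = 0.0557), without MP replicate 2 (-0.85, adjusted p = 0.0601) and without MDP replicate 2 (-0.92, adjusted p = 0.0749).

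CDP, the progenitors committed to DC, were set against MDP and against MP. miR-322 was at -3.01 and -3.31 in CDP, below both MDP arrays, but the difference of -0.40 was not called (limma, adjusted p = 0.249; 95% interval -0.71 to -0.08). In this comparison limma called 0 of the 175 miRNAs, 0%, and 26 had an unadjusted p under 0.05, miR-322 among them. Against MP, miR-322 was lower in CDP by 1.36 ± 0.14 (limma, adjusted p = 0.000558), a level 39.0% of that in MP. It was -1.11 within design 1 and -1.61 within design 2. Among all tested miRNAs 21.1% were called, 19.4% lower and 1.71% higher. miR-450a-5p was lower too, with the same limit from the filter. With normexp background correction the difference of miR-322 was -0.83 and was not called (limma, adjusted p = 0.28).

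miR-450a-5p, the member at the far end of the cluster, was measured above background in MP alone. Its processed signal, in linear scanner units before scaling, was 11.5 and 7.78 in MDP and 6.83 and 5.78 in CDP, against 16.6 and 26.1 in MP. In Gr1+ monocytes it was 6.64 and 3.98, and in PDC and the splenic subsets it ran between -0.28 and 2.06. For comparison, the mean signal of the arrays' negative control spots lay between 3.18 and 5.74, with an SD over spots of 2.66 to 3.77. Both MP arrays lay above all 14 others.

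The comparisons of miR-450a-5p with MP describe the population through which it entered the test. Because MDP and CDP were not well above background, each fold is a bound, set by the lowest signal well above background on each array. miR-450a-5p was at least 1.12-fold higher in MP than in MDP (limma, adjusted p = 0.0375) and at least 1.57-fold higher in MP than in CDP (limma, adjusted p = 0.00828). The means on the log2 scale were -5.36 in MDP and -5.54 in CDP, against -4.53 in MP. Values under a floor of -5.30 on design 1 and -5.78 on design 2 were set to that floor. This held for both CDP arrays and 1 MDP array, so the CDP mean is that of the floors. The adjusted p values belong to the differences after flooring and not to the bounds. Within design 1 the difference between MDP and MP was -0.59, and within design 2 it was -1.07. The MDP against MP call was lost without MDP replicate 1 (-0.71, limma adjusted p = 0.204), without MP replicate 2 (-0.44, adjusted p = 0.204) and without MDP replicate 2 (-0.95, adjusted p = 0.138). The CDP against MP call was lost without CDP replicate 2 (-0.93, limma adjusted p = 0.071), and without MP replicate 2 the difference was -0.62. Without the array design as a block neither was called (limma, adjusted p = 0.191 for MDP against MP and 0.0574 for CDP against MP). Between populations in which miR-450a-5p was not well above background no difference is given.

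The 2 probes of miR-450a-5p differ by 1 base in length, and the longer one was the brighter on the MP arrays. They are shown because the signal of this miRNA rests largely on the second.
19 bases: atattaggaacacatcgca
20 bases: atattaggaacacatcgcaa
The longer probe had 21.0 and 33.4 units in MP, with 6 of 7 and 10 of 10 spots well above background. The shorter probe had 12.3 and 18.8 units in MP, with 0 of 10 and 8 of 8 such spots. With the brighter probe alone in place of the mean of both, neither call remained (limma, adjusted p = 0.227 for MDP against MP and 0.118 for CDP against MP).

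miR-503, the neighbour of miR-322, was above background in Gr1+ monocytes and in 1 of 2 MP arrays. Its processed signal was 12.1 and 12.8 in Gr1+ monocytes and 7.03 and 18.4 in MP. It was 2.82 and 3.97 in MDP and 2.95 and 5.04 in CDP. In PDC and the splenic subsets it lay between -7.89 and 1.82, so that both Gr1+ monocyte arrays were above every DC, MDP and CDP array.

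Those signals lay at the scaling floor on most arrays, and miR-503 was called in none of its comparisons. Its log2 difference was 0.28 in Gr1+ monocytes against MDP (limma, adjusted p = 0.461), and -0.46 in MDP against MP (adjusted p = 0.297) and in CDP against MP (adjusted p = 0.222). On design 1 the Gr1+ monocyte array was detected and still lay at the floor of -5.30, so that its difference from MDP there was 0, against 0.55 on design 2. With the floor set 1 log2 unit lower, the difference between Gr1+ monocytes and MDP was 1.02 (limma, adjusted p = 0.0419) and the F test passed (limma, adjusted p = 0.0235). miR-503 had passed the filter through Gr1+ monocyte arrays alone, so its direction against MDP follows from that filter and these calls add no support. The MP value turned on its replicates: without MP replicate 1 the differences of MDP and of CDP from MP were both -0.89. That fit leaves 1 MP array, and nearly all other arrays lie at the floor with no spread, so no test is given.

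**Figure D3:**
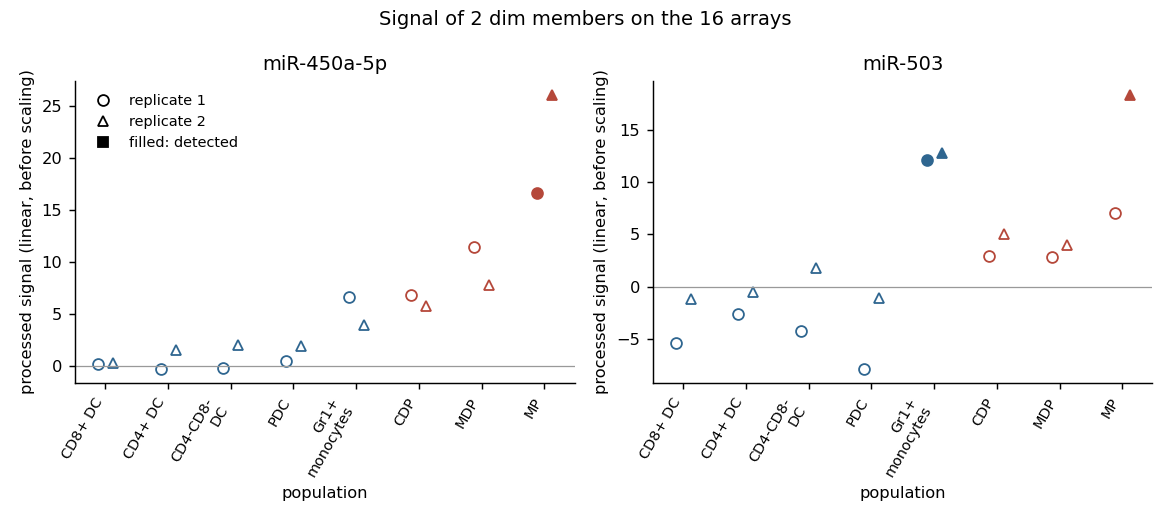
Processed signal in linear units (y axis, own scale in each panel) of miR-450a-5p (left) and miR-503 (right) on the 16 arrays, by population (x axis). Circles are replicate 1, triangles replicate 2, and filled symbols are arrays on which the miRNA was detected. miR-450a-5p is filled in MP alone, at 16.6 and 26.1, and miR-503 in both Gr1+ monocyte arrays and 1 MP array.

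miR-351 and miR-542-3p gave no measurable difference at this signal. The processed signal of miR-351 ran between -2.43 and 2.27 over the 16 arrays and that of miR-542-3p between -4.84 and 6.45. In both cases the highest value was on the second MP array, and neither was well above background there by the rule. Their levels are therefore bounded from above by the background and were not compared.

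Differentiated cells were then set against progenitors, Gr1+ monocytes against MDP and the DC populations against CDP. In Gr1+ monocytes miR-322 was at -2.48 and -2.66, slightly above the -2.72 and -2.80 of MDP, with no overlap. The difference of 0.19 ± 0.14 was not called (SE; limma, adjusted p = 0.377; 95% interval -0.13 to 0.51), and limma called 0 of the 3 tested members (0 at an unadjusted p under 0.05), where 37.7% of all tested miRNAs were, 20% higher and 17.7% lower.

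In PDC miR-322 was at -4.38 and -4.27, against -3.01 and -3.31 in CDP. It was lower in PDC by 1.17 ± 0.14 (SE; limma, adjusted p = 0.000128), a level 44.4% of that in CDP, and by 1.38 within design 1 and 0.97 within design 2. This was the 1 member called, where 37.7% of all tested miRNAs were called and 12% were lower. With normexp background correction, under which the difference was -0.56, it was not called (limma, adjusted p = 0.308).

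In the 3 splenic subsets together miR-322 lay between -4.44 and -3.30 with a median of -3.64 over 6 arrays, against -3.01 and -3.31 in CDP. The ranges overlapped at CD4-CD8- DC replicate 2. The mean was lower in splenic DC by 0.66 ± 0.11 (SE; limma, adjusted p = 0.000814), a level 63.3% of that in CDP, where 56% of all tested miRNAs were called and 19.4% were lower. Within design 1 the difference was -0.85 and within design 2 it was -0.47. By subset, CDP exceeded CD8+ DC by 1.22 (limma, adjusted p = 0.000138 over all pairs) and CD4+ DC by 0.48 (adjusted p = 0.0218), while the 0.27 over CD4-CD8- DC was not called (adjusted p = 0.171). With normexp background correction the difference of the subsets together was -0.28 and was not called (limma, adjusted p = 0.638).

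The monocyte and DC branches were compared directly in the same fit, a contrast added after the values were seen. The step to Gr1+ monocytes from MDP exceeded the step to PDC from CDP by 1.36 ± 0.20 for miR-322 (SE; limma, adjusted p = 0.000932, where 31.4% of all tested miRNAs were called). It exceeded the step to splenic DC from CDP by 0.85 ± 0.18 (limma, adjusted p = 0.0104, where 32.6% were called). With normexp background correction these were 1.10 and 0.83 and were not called (limma, adjusted p = 0.287 and 0.346). The differences were not particular to miR-322. miR-16, which shares its seed, differed in the same direction by 0.93 (limma, adjusted p = 0.00156) and 0.66 (adjusted p = 0.00942), and miR-15b by 0.53 (adjusted p = 0.0335) and 0.56 (adjusted p = 0.0187). miR-15a and miR-195 were not called in either contrast.

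Over all differentiated against all progenitor populations, miR-322 lay between -4.44 and -2.48 with a median of -3.64 in 10 differentiated arrays, and between -3.31 and -1.70 with a median of -2.76 in 6 progenitor arrays. The Gr1+ monocytes fell within the progenitor range. The mean was lower in differentiated populations by 1.10 ± 0.07 (SE; limma, adjusted p = 1.19e-06), a level 46.7% of that in progenitors. It was -1.15 within design 1 and -1.05 within design 2. Among all tested miRNAs 63.4% were called and 24.6% were lower. miR-450a-5p averaged -5.54 in differentiated and -5.14 in progenitor populations, and was detected on 0 of 10 and 2 of 6 arrays (limma, adjusted p = 0.00926). Both detected arrays were from MP, through which it passed the filter, so this call adds no support and no fold is given. In these pooled cells, fewer cells with a miRNA and less of it per cell cannot be told apart.

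In PDC, in splenic DC and over all differentiated populations, the seed mates of miR-322 went the other way by the main scaling. In Gr1+ monocytes against MDP miR-322 itself lay above 0, by 0.19, and was not called. The sign of miR-15b turned under other scalings. The seed mates come from other loci, miR-15a and miR-16 from chromosome 14, miR-15b and a second copy of miR-16 from chromosome 3, and miR-195 from chromosome 11. miR-15a was at 1.27 and 0.79 in CD8+ DC, 1.40 and 1.03 in CD4+ DC, 1.26 and 0.83 in CD4-CD8- DC, 0.96 and 0.85 in PDC, and 1.15 and 0.81 in Gr1+ monocytes. It was at -0.23 and -0.65 in CDP, -0.60 and -0.73 in MDP, and -0.30 and -0.54 in MP. All 10 differentiated arrays lay above all 6 progenitor arrays, while miR-322 was lower in 4 of the 5 differentiated populations than in any progenitor population by its mean.

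All 4 seed mates tested, miR-15a, miR-15b, miR-16 and miR-195, were higher in differentiated populations in each of the 4 comparisons with progenitors, except that miR-15b turned below 0 in PDC and in splenic DC with scaling over all miRNAs, and in splenic DC with quantile normalisation too. miR-195 had passed the filter through differentiated populations alone, so its direction against progenitors follows from that filter and its calls add no support. In PDC against CDP, miR-15a was higher by 1.34 (limma, adjusted p = 1.36e-05) and miR-16 by 0.71 (adjusted p = 0.000471). miR-15b was higher by 0.40 (limma, adjusted p = 0.0189), but with arrays scaled over all miRNAs it stood at -0.13 (adjusted p = 0.65). In the splenic subsets against CDP it was 0.37 by the main scaling (limma, adjusted p = 0.00668), -0.35 when scaled over all miRNAs and -0.22 with quantile normalisation. miR-16, scaled over all miRNAs, stood at 0.19 in PDC (limma, adjusted p = 0.436) and at 0.26 in splenic DC (adjusted p = 0.174). In Gr1+ monocytes against MDP, where miR-322 was not called, miR-15a and miR-16 were both higher by 1.64 (limma, adjusted p = 1.04e-05 each).

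miR-195 was not well above background in CDP or MDP. It was at least 1.58-fold higher in PDC than in CDP (limma, adjusted p = 0.00084), and at least 1.68-fold higher in splenic DC (adjusted p = 9.73e-05). These adjusted p values belong to the differences after flooring and not to the bounds. The share of all tested miRNAs called higher was 25.7% in PDC, 36.6% in splenic DC, 20% in Gr1+ monocytes and 38.9% over all differentiated populations. In the 3 comparisons among progenitors limma called 0 of the 4 seed mates by the main scaling, and 0 had an unadjusted p under 0.05. Of all tested miRNAs 10.3% were called in MDP against MP, 0% in CDP against MDP and 21.1% in CDP against MP. Scaled over all miRNAs, CDP exceeded MP for miR-15a by 0.73 (limma, adjusted p = 0.0227), miR-15b by 0.75 (adjusted p = 0.0256) and miR-16 by 0.75 (adjusted p = 0.0218). miR-195, at 0.03, was not called there. miR-497, the remaining mate named here, had 0 of 298 spots well above background. The RefSeq table gives the same seed to miR-195b, miR-6342, miR-6353 and miR-6419, which were not examined.

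**Figure D4:**
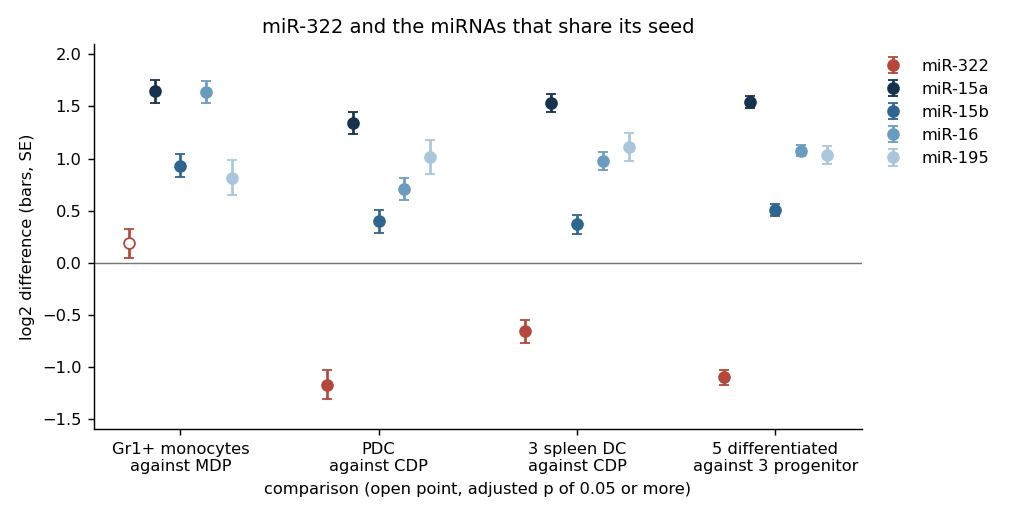
Log2 difference (y axis, bars give the SE) of miR-322 and of 4 miRNAs with the same seed, in 4 comparisons of differentiated with progenitor populations (x axis). Filled points passed an adjusted p of 0.05. miR-322 lies below 0 in 3 comparisons and is open at 0.19 in Gr1+ monocytes against MDP, while the 4 others lie above 0 throughout at this scaling, miR-15b not so in PDC and splenic DC when scaled over all miRNAs.

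miR-125b-5p, which shares the seed of the undetected miR-351 and is expressed in blood progenitors, fell along with miR-322 among the progenitors. It was at -2.64 and -2.12 in MDP and -3.18 and -2.99 in CDP, against -1.64 and -0.92 in MP. The difference was -1.10 in MDP (limma, adjusted p = 0.0386) and -1.80 in CDP (adjusted p = 0.00291), and that in MDP was not called when arrays were scaled over all miRNAs (-0.83, adjusted p = 0.381) or by quantiles (-0.72, adjusted p = 0.302). It was also lower in Gr1+ monocytes than in MDP, by 1.53 (limma, adjusted p = 0.00221), although with normexp background correction that value was 0.05, and lower in PDC than in CDP, by 1.15 (limma, adjusted p = 0.00912). In Gr1+ monocytes against MDP miR-322 was not called. In splenic DC against CDP, where miR-322 was called, miR-125b-5p was not (-0.28, limma adjusted p = 0.351). miR-125a-5p was detected on 2 arrays and was not tested.

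The miRNAs whose pattern was most like that of miR-322 were miR-10a, encoded in a Hox gene locus, miR-24, and miR-17, of the proliferation-linked miR-17 to miR-92 cluster. Over 16 arrays, centred within each array design, Pearson's r was 0.88 with miR-10a, 0.80 with miR-24 and 0.77 with miR-17. These are descriptions over arrays that share their normalisation, with 2 arrays from each population. miR-10a was highest in MP at -1.44 ± 0.64 and lowest in CD8+ DC at -4.44 ± 0.10 (SD, n = 2 each), as miR-322 was. It was not called in MDP against MP (-1.13, limma adjusted p = 0.121), PDC against CDP (-0.13, adjusted p = 0.944) or splenic DC against CDP (-0.54, adjusted p = 0.197), in all of which miR-322 was. miR-24 was not called in MDP against MP (0.15, limma adjusted p = 0.727). In PDC it was lower than in CDP by 0.77 (limma, adjusted p = 0.0039), the direction of miR-322. miR-17 was lower in Gr1+ monocytes than in MDP by 1.16 (limma, adjusted p = 0.000697), a step at which miR-322 was not called.

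**Figure D5:**
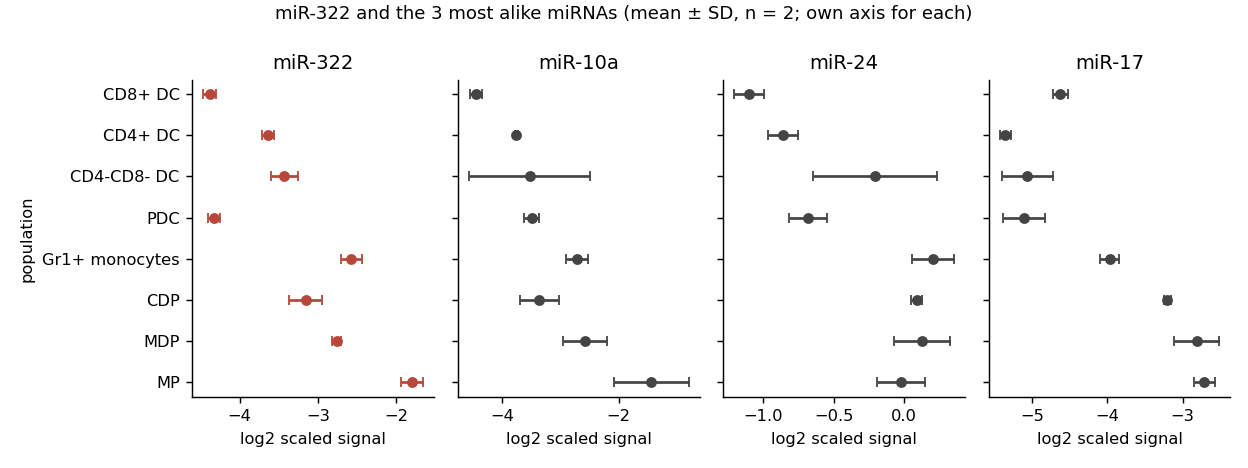
Log2 scaled signal (x axis, mean ± SD, n = 2, with its own range in each panel) of miR-322 and of the 3 miRNAs with the highest correlation to it, by population (y axis). miR-10a shares the highest point in MP and the lowest in CD8+ DC with miR-322, and miR-24 is flat among the progenitors.

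For miR-450a-5p the nearest were miR-130a (r = 0.82), let-7c (r = 0.82) and miR-196b (r = 0.80), and for miR-503 miR-10a (r = 0.57), let-7e (r = 0.54) and miR-744 (r = 0.53). Much of each of these 2 members lies at the floor, which limits what the values can show. Among the members themselves r was 0.57 between miR-322 and miR-503, 0.67 between miR-322 and miR-450a-5p, and 0.73 between miR-503 and miR-450a-5p. miR-503 lay above the floor only on the second replicates of MP and Gr1+ monocytes. miR-450a-5p did so only on both MP arrays and the second MDP replicate. The second MP replicate was the only array with both above the floor, so their r rests largely on it.

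Markers of other cell states moved with miR-322 in some comparisons and not in others. Of 7 miRNAs known from blood progenitors (miR-126-3p, miR-196b, miR-130a, miR-125b-5p, miR-99a, let-7e and miR-10a), limma called 6 lower in MDP than in MP and 7 lower in CDP than in MP. Among all tested miRNAs 9.71% and 19.4% were called lower in these comparisons. Against CDP, where miR-322 was lower, 3 of the 7 were called lower in PDC and 3 in splenic DC (12% and 19.4% of all tested). In Gr1+ monocytes against MDP, where miR-322 was not called, 5 were lower (17.7% of all tested). Over all differentiated against all progenitor populations 6 were lower (24.6% of all tested). miR-10a was lower in MDP by 1.13 but was not called (limma, adjusted p = 0.121). With arrays scaled over all miRNAs, limma called 0 of all tested miRNAs in MDP against MP. Their summed linear scaled signal was 0.557 to 0.558 in CDP and 0.840 to 1.01 in MDP, against 1.85 to 2.77 in MP, and 0.129 to 0.427 in the differentiated populations. The part of these differences in those of the members was not tested. Among 9 miRNAs of stromal, endothelial and muscle cells, where the cluster is known to be active, 8 were detected on 0 arrays (miR-143, miR-145, miR-199a-3p, miR-199a-5p, miR-214, miR-1, miR-133a and miR-206) and miR-10b on 1, in MP. Their summed scaled signal was at most 0.046, in MP. This list leaves out miR-126-3p, an endothelial miRNA counted above with the progenitors. It was detected on 8 of 16 arrays and its mean was highest in MP, at -1.62.

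The erythroid markers miR-451, miR-486 and miR-144 together had a summed scaled signal of 0.536 and 0.029 on the 2 MP arrays and of 0.130 to 1.29 in PDC and splenic DC, and miR-144 was detected on 0 arrays. The myeloid markers miR-223, miR-142-3p and miR-142-5p summed to 21.3 to 26.4 in Gr1+ monocytes, at most 4.58 in PDC, at least 8.14 in splenic DC and 5.27 to 11.7 in the progenitors. The lymphocyte markers miR-150, miR-181a and miR-342-3p summed to 2.18 to 4.11 in PDC and splenic DC, 0.721 to 0.790 in Gr1+ monocytes and 0.484 to 0.721 in the progenitors. Their part in the members' differences was not tested.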

How the data were processed

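The deposited files hold 1-colour array intensities for 16 samples, with background-corrected processed signals and spot flags made by Agilent Feature Extraction, version 10.7.3.1 per the file headers and 9.1 per the submitters' processing notes. Their series tables held the same processed intensities, except for 1 spot on each of 4 arrays. The members and all miRNA lists (progenitor, myeloid, lymphocyte, erythroid, and stromal, endothelial and muscle) were chosen with earlier results of these data known.

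Control spots and outlier-flagged spots were left out, no spot was saturated, and the spots of each probe and then the probes of each miRNA were averaged. Each array was divided by its 75th percentile over the 88 miRNAs detected on all 16 arrays (factors of 333 to 876 signal units). Values under a floor per design, the median over its arrays of the 5th percentile of the detected miRNAs, were raised to it, and log2 was taken. Of 604 miRNAs, 175 were tested with limma 3.58.1 in R 4.3.3, in 1 fit of all arrays with a mean per population and the array design as a block, at an adjusted p of 0.05 (Benjamini-Hochberg). The fit was tested on simulated data.

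Arrays held 116 to 174 detected miRNAs, and their number, 2 per population, limits the precision. Replicate number, array design, slide and scan coincide (8 arrays each), so the numbers mark a shared batch. Same-numbered arrays deviated together, with correlations of 0.297 to 0.917 over 28 pairs of populations (median 0.572). miRNAs at the floor on both designs deviate by the same fixed amount in every population, so these correlations do not measure the batch alone. The labels call the replicates biological. The genes named were the members, the rest of the cluster, seed mates, marker lists and the 3 miRNAs most like each tested member. Alternatives covered scaling, background correction, probe choice, the detection filter, the floor, the series tables, the block, and leaving out each array. Mature sequences and positions came from RefSeq (GRCm38.p6), matched by the sequence complementary to the longest probe and by the stem of the miRNA's name.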

Additional observations from a re-analysis of the deposited data

Results flagged for a closer look

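For miR-322 the step from a progenitor to its differentiated population differed between the monocyte and DC branches, by tests of the difference itself that were added after the values were seen. Gr1+ monocytes less MDP exceeded PDC less CDP by 1.36 (limma, adjusted p = 0.000932), with 1.62 within design 1 and 1.10 within design 2. It exceeded splenic DC less CDP by 0.85 (limma, adjusted p = 0.0104), with 1.09 within design 1 and 0.60 within design 2. With arrays scaled over all miRNAs the values were 1.85 and 1.52, and with quantile normalisation 1.80 and 1.27, all called. With normexp background correction they were 1.10 and 0.83 and were not called (limma, adjusted p = 0.287 and 0.346). miR-16 and miR-15b, which share the seed of miR-322, differed in the same direction, miR-16 by 0.93 (limma, adjusted p = 0.00156) and 0.66 (adjusted p = 0.00942) and miR-15b by 0.53 (adjusted p = 0.0335) and 0.56 (adjusted p = 0.0187), so the difference is not particular to miR-322.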

How the results depend on the processing

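For miR-322 the F test and the difference between differentiated and progenitor populations kept their direction and call in every alternative. In PDC, in splenic DC and in CDP against MP its calls were lost only with normexp background correction (-0.56, -0.28 and -0.83). In MDP against MP they were lost with normexp (-0.49), scaling over all miRNAs (-0.69), quantile normalisation (-0.67) and, by a wider adjustment, with no filter on detection (-0.96). CDP against MDP, not called, changed sign when scaled over all miRNAs (0.074). miR-450a-5p was less stable. Scaled over all miRNAs, its adjusted p in the F test was 0.199 and its differences were -0.54 for MDP against MP, -0.81 for CDP against MP and -0.36 for differentiated against progenitor populations. With quantile normalisation these were 0.151 for the F test, -0.60 and -0.90, with normexp 0.314 for the F test, 0.019, -0.25 and 0.023, and with the brightest probe 0.226 for the F test, -0.51, -0.57 and -0.21. With no filter on detection they were 0.102 for the F test, -0.83 and -1.01, and without the replicate block 0.100 for the F test, -0.83 and -1.01, none of them called. The cause of these changes was not tested. The replicate block changed no other call of the members. miR-503 changed sign with normexp in MDP against MP (0.14) and in differentiated against progenitor populations (0.11), and was called with a lower floor in the F test (0.0235) and in Gr1+ monocytes against MDP (1.02). It had passed the filter through Gr1+ monocytes alone, so those calls add no support.

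Leaving out 1 array, miR-322 ran from -1.08 to -0.85 in MDP against MP, where 1 of 4 calls held. miR-450a-5p ran from -1.22 to -0.44 in MDP against MP and from -1.40 to -0.62 in CDP against MP. miR-503 ran from -0.89 to -0.039 in both of these, from -0.24 (called without MP replicate 1) to 0.042 (without MP replicate 2) in differentiated against progenitor populations, and its F test from 0.0297 to 0.604. In MDP against MP the number of miRNAs called was 18, and it was 0 (without MDP replicate 1, 36 unadjusted) to 15 with 1 array left out, 0 when scaled over all miRNAs, with normexp or with no filter (limma; 21, 5 and 41 at an unadjusted p under 0.05), 7 with quantile normalisation, 9 with the brightest probe and 8 without the block. In CDP against MP it was 37, and 0 with normexp (17 unadjusted), 23 with quantile normalisation, 18 with no filter or without the block, and 20 to 26 with 1 array left out. In CDP against MDP it was 0 (26 unadjusted), and 1 when scaled over all miRNAs or by quantiles. With normexp it was 11 in Gr1+ monocytes against MDP (66 by the main scaling), 31 in PDC (66), 42 in splenic DC (98), 56 over differentiated populations (111) and 53 in the F test (128). With no filter it was 497 in splenic DC and 508 over differentiated populations of 604, where floored miRNAs have no spread, and among miRNAs detected on all arrays alone it was 81 in the F test.

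Scaling moved the balance of calls. Higher and lower calls numbered 3 and 34 in CDP against MP, but 32 and 7 when scaled over all miRNAs and 10 and 13 by quantiles. They were 45 and 21 in PDC, but 26 and 39 and 35 and 31, and 64 and 34 in splenic DC, but 30 and 52 and 43 and 41. Over differentiated populations they were 68 and 43, but 46 and 49 and 55 and 45. In MDP against MP they were 1 and 17, but 0 and 0 and 2 and 5. The median of all tested miRNAs shifted in CDP against MP to 0.24 when scaled over all miRNAs, from -0.21 by the main scaling, and in PDC to -0.24 from 0. Members near background (miR-503, miR-450a-5p) are limited by signal, and miR-351 and miR-542-3p have only an upper bound.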
